A study of Mus musculus with 15 samples.

Results

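The genes described here are 10 genes known to be induced by type I interferon: Isg15, Isg20, Ifit1, Ifit2, Ifit3, Usp18, Xaf1, Ddx58, Irf7 and Rsad2. They were taken by their symbols in the platform annotation, with 1 probe set per gene, the one with the highest mean over the 15 arrays. Of the 10 genes, 9 had a probe set of their own, and all 9 passed the filter on low values, among 15498 genes tested of 18194 named. The only probe set that names Isg15 is paired with both Isg15 and Gm9706. Its signal cannot be assigned to either gene, so it stands outside every count below.

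The study compared modes of T cell activation in 3 helper lineages. Naive CD4 T cells were sorted from 3A9 mice, which carry a transgenic T cell receptor for hen egg lysozyme (HEL), and RNA was taken after 4 days. In HA cultures, HEL was presented by splenocytes of wild-type mice irradiated with 30 Gy, at 2 µg/ml for Th1 and Th17 and 1 µg/ml for Th9 cultures. In PBAB cultures, the plate was coated with antibodies to CD3 (1 µg/ml) and CD28 (10 µg/ml), and no splenocytes are named in the protocol. The Th1 cocktail was IL-12 (10 ng/ml) with an antibody to IL-4 (10 µg/ml). The Th9 cocktail was IL-4 (10 ng/ml) with TGF-beta (1 ng/ml). The Th17 cocktail held 3 cytokines, IL-6 (10 ng/ml), IL-1alpha (5 ng/ml) and TGF-beta (3 ng/ml). It also held antibodies to IFN-gamma (20 µg/ml), IL-12 (10 µg/ml) and IL-4 (10 µg/ml). Each of these 6 groups had 2 arrays, numbered as biological replicates. A further array per lineage was labelled APC alone, and its stimulus and cocktail are not given in the sources used here. The age and number of the mice behind each sample are not given either, so a p-value here reflects only how far these arrays spread.

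Summed levels of 10 T cell markers were 14.42 to 15.04 on the log2 scale in the 12 activated arrays and 10.51 to 11.66 in the 3 APC alone arrays. Those of 19 macrophage and monocyte markers were 9.24 to 12.80 and 15.38 to 15.61. The APC alone arrays, labelled CD4 T cells as their source, were thus low in T cell markers and high in macrophage markers. The 3 APC alone arrays also stood apart in technical measures. Their actin 3′ minus 5′ signal was 0.736 to 0.994, against 0.0453 to 0.109 in HA and 0.124 to 0.277 in PBAB arrays. The interquartile range of their values was 2.02 to 2.09, against 3.02 to 3.48 in the activated arrays.

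As background, type I interferons bind a receptor of the chains Ifnar1 and Ifnar2. The kinases Tyk2 and Jak1 then signal through a complex that holds Stat2 and Irf9 and binds interferon-stimulated response elements in promoters. Interferon-gamma acts through the receptor chains Ifngr1 and Ifngr2, and the sets of genes that both induce overlap. Among the genes induced are sensors of viral RNA, inhibitors of viral replication, and proteins that restrain the signal itself.

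Promoters of the genes were searched for GAAANNGAAA, the core of the response element, on both strands, in windows from 250 bases before to 50 bases after each RefSeq start. The motif was present in 3.44% of 32851 such windows and, since a gene can have several windows, in at least 1 window of 3.99% of 27025 genes. Of the 9 listed genes with a window, 5 held it (Isg15, Ifit1, Ifit3, Rsad2 and Ddx58) and 4 did not (Isg20, Ifit2, Irf7 and Xaf1). The 120 bases from 170 to 51 before the start are shown for Ifit1, Ifit3, Isg15 and Rsad2, which held the motif there. Those of Xaf1, the gene with the largest averaged difference between the activations, follow for comparison. Sequences are from RefSeq on build GRCm38.p6, read 5′ to 3′ in the direction of the gene, with each match in capitals. On the opposite strand the motif reads TTTCNNTTTC.
Ifit1 (chr19:34640719-34640838, + strand): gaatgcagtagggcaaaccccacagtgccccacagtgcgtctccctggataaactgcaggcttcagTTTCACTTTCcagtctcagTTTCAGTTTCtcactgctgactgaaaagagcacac
Ifit3 (chr19:34583359-34583478, + strand): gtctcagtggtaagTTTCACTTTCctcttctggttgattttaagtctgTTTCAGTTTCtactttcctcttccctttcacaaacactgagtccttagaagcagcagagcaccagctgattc
Isg15 (chr4:156200869-156200988, - strand): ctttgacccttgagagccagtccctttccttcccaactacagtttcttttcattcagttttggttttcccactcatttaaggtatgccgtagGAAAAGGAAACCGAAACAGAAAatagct
Rsad2 (chr12:26456503-26456622, - strand): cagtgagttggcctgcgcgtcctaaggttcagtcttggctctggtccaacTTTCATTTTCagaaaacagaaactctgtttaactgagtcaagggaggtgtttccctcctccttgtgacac
Xaf1 (chr11:72301459-72301578, + strand): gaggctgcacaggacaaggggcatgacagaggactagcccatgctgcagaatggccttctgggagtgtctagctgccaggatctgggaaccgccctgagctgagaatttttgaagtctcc
The pair of matches in Ifit1 began 104 and 85 bases before the start, and the pair in Ifit3 began 156 and 122 bases before it. In both genes, the capitals spell the same words in the same order. Isg15 held 3 overlapping matches, and Rsad2 held 1, beginning 120 bases before its start. The match in Ddx58 lay just after its start, outside the stretch shown. In the averaged comparison of PBAB with HA given next, Rsad2, with a match, differed by 0.02 on the log2 scale. Ifit3, Ifit1 and Ddx58, also with a match, differed by -0.99, -1.25 and -1.40. Irf7, Ifit2, Isg20 and Xaf1, without one in these windows, differed by -1.18, -2.03, -2.16 and -3.63. A link between the motif and these differences was not tested.

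Levels of 8 of the 9 genes were lower in PBAB than in HA cultures when the 3 lineages were averaged. A gene is referred to as called where the Benjamini-Hochberg adjusted p of the limma fit over all 15498 genes was under 0.05. In this average, 17.3% of all tested genes were called lower. The median difference of the 9 genes was -1.40 on the log2 scale, against 0.02 over all tested genes. Differences of the 8 ran from -3.63 ± 0.26 (SE) for Xaf1 to -0.99 ± 0.19 for Ifit3, and the gene that was not called was Rsad2. In bulk samples, fewer cells of a type and less RNA per cell cannot be told apart. No level is compared between genes, since probe sets differ in their response.

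**Figure D1:**
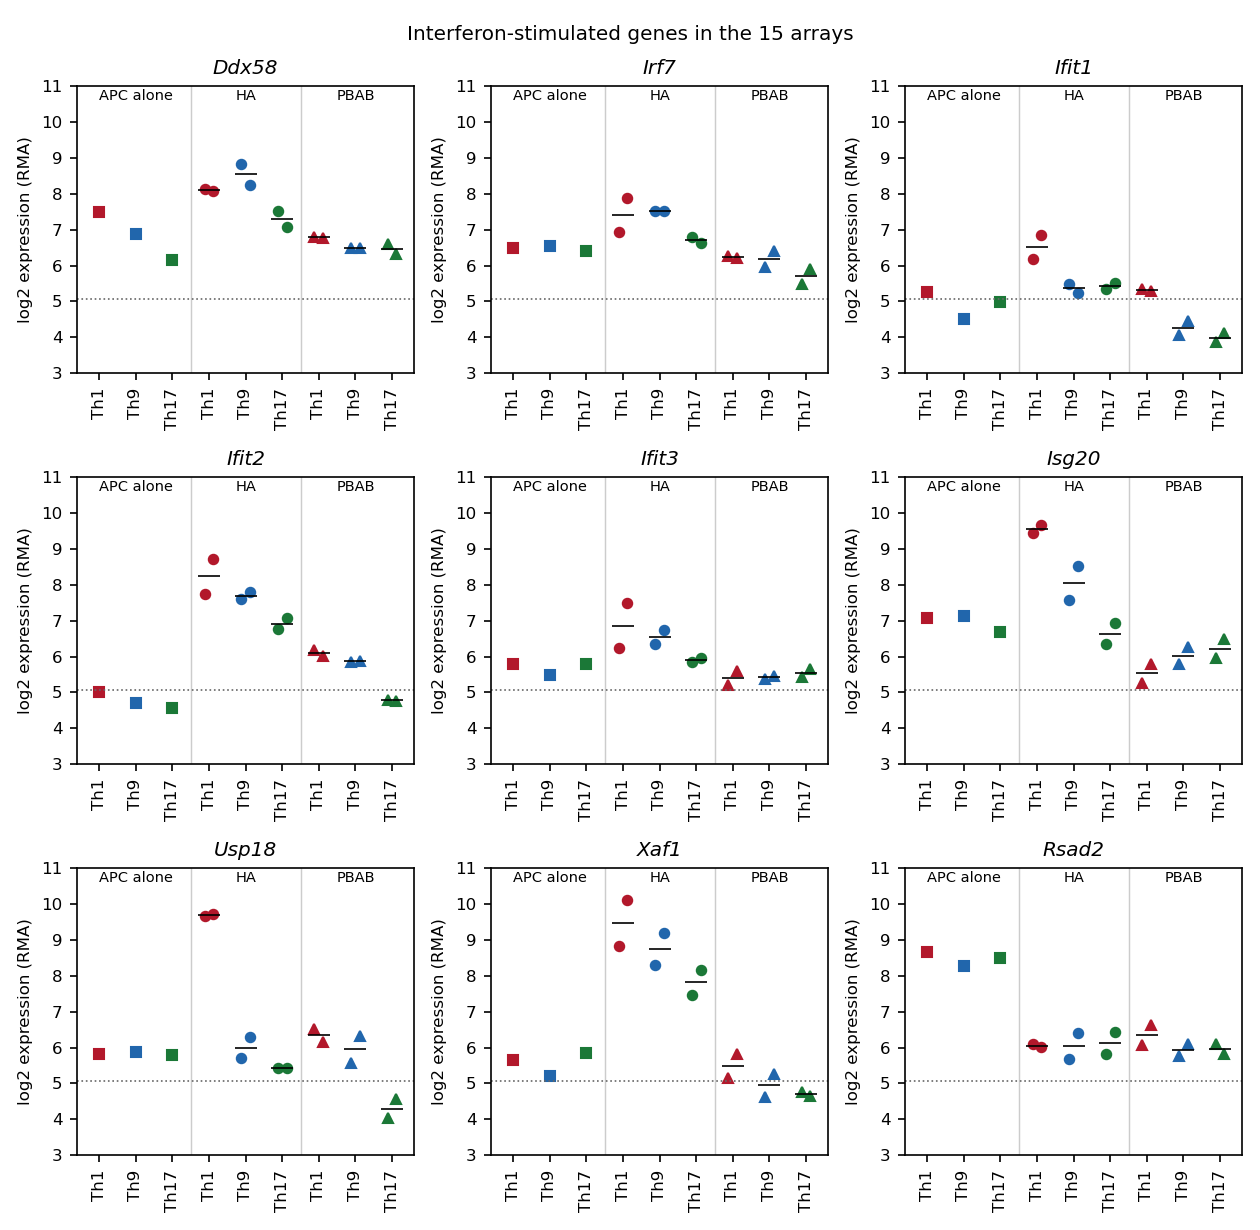
Log2 expression of the 9 genes in each of the 15 arrays, by activation and lineage. Squares are APC alone, circles HA and triangles PBAB arrays, short lines are means of 2 arrays, and the dotted line is the filter threshold of 5.07. HA arrays stand highest in most panels, Usp18 is high in the Th1 HA arrays alone, and Rsad2 is high in the 3 APC alone arrays.

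The sensor and the transcription factor among the genes are taken first. Ddx58 encodes RIG-I, a cytoplasmic sensor of viral RNA. It was at 8.12 and 8.07 in Th1 HA arrays against 6.79 and 6.78 in Th1 PBAB arrays. In Th9 cultures it was at 8.84 and 8.25 against 6.49 and 6.49, and in Th17 cultures at 7.52 and 7.07 against 6.61 and 6.32. HA arrays were above PBAB arrays in each lineage, with no overlap. The differences were -1.31 ± 0.22 (adjusted p = 0.00312), -2.05 ± 0.22 (adjusted p = 0.000343) and -0.83 ± 0.22 (adjusted p = 0.0259) in Th1, Th9 and Th17 cultures. Both other probe sets of Ddx58 were also lower in PBAB in the average, by -0.37 (adjusted p = 0.0108) and -0.77 (adjusted p = 0.000544).

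Irf7 encodes the transcription factor that amplifies interferon production and is itself interferon-induced. Its level was 6.94 and 7.89 in Th1 HA, and 6.28 and 6.21 in Th1 PBAB arrays. In Th9 cultures it was 7.53 and 7.53 against 5.96 and 6.41, and in Th17 cultures 6.80 and 6.63 against 5.49 and 5.91. The groups did not overlap in any lineage. Irf7 fell by 1.17, 1.35 and 1.02 in Th1, Th9 and Th17 PBAB cultures (SE 0.28 each), with adjusted p of 0.0204, 0.0112 and 0.0332.

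The Ifit genes encode proteins that bind foreign RNA and block its translation. Ifit2 was at 7.74 and 8.73 in Th1, 7.61 and 7.78 in Th9, and 6.77 and 7.06 in Th17 HA arrays. In PBAB arrays it was at 6.18 and 6.02, 5.85 and 5.88, and 4.78 and 4.77. All 6 HA arrays were above all 6 PBAB arrays. The difference was close to the same size in the 3 lineages, at -2.13 ± 0.27, -1.83 ± 0.27 and -2.14 ± 0.27 (adjusted p = 0.000632, 0.00169 and 0.000716). The Th17 PBAB mean was below the filter threshold, so that size is uncertain.

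Ifit1 was at 6.19 and 6.86, 5.50 and 5.25, and 5.35 and 5.51 in Th1, Th9 and Th17 HA arrays. In the PBAB arrays of those lineages it was at 5.34 and 5.30, 4.07 and 4.47, and 3.87 and 4.11. The gene was called lower in PBAB in all 3 lineages, by -1.21 ± 0.23, -1.10 ± 0.23 and -1.44 ± 0.23 (adjusted p = 0.00638, 0.0111 and 0.00243). The Th9 and Th17 PBAB means lay below the threshold. Ifit3 was at 6.24 and 7.48 against 5.22 and 5.59 in Th1, and 6.36 and 6.74 against 5.37 and 5.46 in Th9 cultures. It was called lower in both, by -1.46 ± 0.33 (adjusted p = 0.0143) and -1.13 ± 0.33 (adjusted p = 0.0459). In Th17 cultures Ifit3 was at 5.85 and 5.97 in HA and 5.43 and 5.65 in PBAB arrays. These did not overlap, but the difference of -0.37 was not called (adjusted p = 0.553, 95% interval -1.10 to 0.36).

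Xaf1 encodes an interferon-induced protein that counters an inhibitor of cell death. It was at 8.84 and 10.10 in Th1, 8.30 and 9.20 in Th9, and 7.46 and 8.17 in Th17 HA arrays. In PBAB arrays it was at 5.15 and 5.83, 4.63 and 5.27, and 4.77 and 4.64. The lowest HA array was above the highest PBAB array by more than the spread within any group. The differences were -3.98 ± 0.45, -3.80 ± 0.45 and -3.11 ± 0.45 (adjusted p = 0.000347, 0.000555 and 0.00133). In Th1 cultures, where both means were above the threshold, this was a 15.7-fold lower level. A second Xaf1 probe set was between 3.39 and 4.24 in all 15 arrays, below the threshold, and was not called (-0.22, adjusted p = 0.277).

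Isg20 encodes an interferon-induced RNA exonuclease. It was at 9.43 and 9.66 in Th1 HA arrays and at 5.27 and 5.79 in Th1 PBAB arrays. The difference of -4.02 ± 0.34 (adjusted p = 6.93e-05), 16.2-fold, was the largest of the 9 genes in Th1 cultures. In Th9 cultures Isg20 was at 7.59 and 8.52 against 5.78 and 6.25, a difference of -2.03 ± 0.34 (adjusted p = 0.00343). In Th17 cultures it was at 6.34 and 6.92 against 5.95 and 6.47. There the groups overlapped and the difference of -0.42 was not called (adjusted p = 0.503, 95% interval -1.17 to 0.34).

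Usp18 encodes the protease that removes ISG15 from proteins and restrains signalling at the type I receptor. It was at 9.66 and 9.72 in Th1 HA arrays, while the other 13 arrays were between 4.03 and 6.53. Th1 PBAB arrays were at 6.53 and 6.16, a difference of -3.35 ± 0.28 (adjusted p = 6.93e-05), 10.2-fold. Th9 arrays were at 5.71 and 6.29 in HA and 5.58 and 6.31 in PBAB, with overlap and a difference of -0.05 (adjusted p = 0.951, 95% interval -0.68 to 0.57). Th17 arrays were at 5.44 and 5.44 in HA, no higher than the 3 APC alone arrays, and 4.03 and 4.56 in PBAB. The Th17 difference of -1.14 ± 0.28 was called (adjusted p = 0.0191), with the PBAB mean below the threshold.

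Rsad2 encodes viperin, an enzyme that makes an antiviral nucleotide. It was at 6.09 and 6.01 against 6.08 and 6.64 in Th1, 5.67 and 6.41 against 5.78 and 6.10 in Th9, and 5.82 and 6.43 against 6.11 and 5.83 in Th17 cultures, HA before PBAB. The groups overlapped in each lineage, and the averaged difference was 0.02 (adjusted p = 0.959, 95% interval -0.36 to 0.40). Of its other probe sets, 1 was called lower in Th17 PBAB cultures (-0.87, adjusted p = 0.0368), at 3.98 and 4.67 in HA and 3.74 and 3.18 in PBAB arrays, all below the threshold. The shared probe set of Isg15 and Gm9706 was at 7.77 and 7.85 in Th1 HA and 8.35 and 7.63 in Th1 PBAB arrays. It was between 5.91 and 6.54 in the 8 activated arrays of the other lineages. Its averaged difference between PBAB and HA was -0.10 (adjusted p = 0.674).

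Counted by lineage, 8 of the 9 genes were called lower in PBAB in Th1, 7 in Th9 and 6 in Th17 cultures. Over all tested genes, 9.4%, 6.32% and 10.4% were called lower in the same comparisons. Both PBAB arrays were below both HA arrays for 8, 7 and 7 of the 9 genes, against 26.8%, 22% and 28.5% of all tested genes. In pairs of the same lineage and replicate number, PBAB was lower in 6 of 6 pairs for 7 genes, in 5 for Usp18 and in 3 for Rsad2. The share of all tested genes lower in 6 of 6 pairs is not given here, so this count is a description only.

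**Figure D2:**
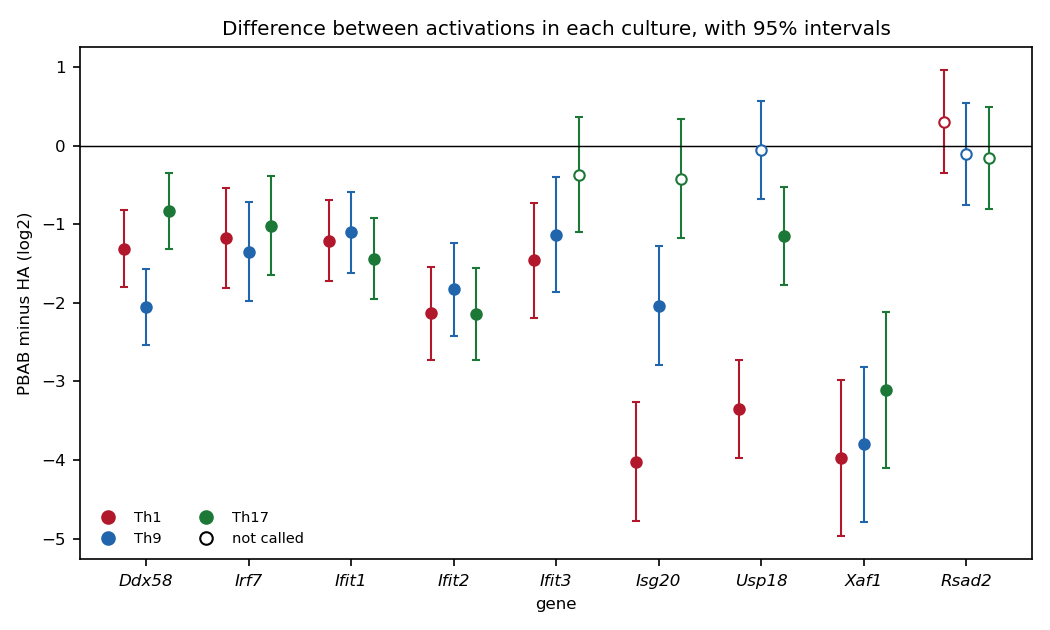
PBAB minus HA on the log2 scale for each of the 9 genes in Th1 (red), Th9 (blue) and Th17 (green) cultures, as points with 95% intervals from the fit. Filled points were called and open points were not. Ddx58, Ifit1, Ifit2, Irf7 and Xaf1 lie below 0 with their intervals in all 3 lineages, while Isg20 and Usp18 spread from below -3 to near 0.

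Several of these calls were lost in fits that left out 1 array, also where the difference did not shrink. The Irf7 difference in Th1 cultures, for example, was -1.20 without PBAB replicate 1, against -1.17 with all arrays. In Th1 cultures, the call of Ifit1 was lost without HA replicate 2 (adjusted p = 0.057). That of Ifit3 was lost without HA replicate 2 (0.0734) or PBAB replicate 1 (0.0934). That of Irf7 was lost without HA replicate 2 (0.144), PBAB replicate 1 (0.0779) or PBAB replicate 2 (0.103). In Th9 cultures, Ifit1 was lost without HA replicate 1 (0.0686) or PBAB replicate 1 (0.0897), and Irf7 without HA replicate 1 (0.0505), HA replicate 2 (0.0592) or PBAB replicate 1 (0.0886). Ifit3 in Th9 cultures was lost in 10 of 12 fits that left out 1 array, at adjusted p of 0.0566 to 0.23. In Th17 cultures, Ddx58 was lost without HA replicate 1 (0.165), PBAB replicate 1 (0.0537) or PBAB replicate 2 (0.171). Usp18 was lost without HA replicate 1 (0.0708), HA replicate 2 (0.094) or PBAB replicate 1 (0.141), and Irf7 without any 1 of the 4 Th17 arrays (0.0608 to 0.202). The calls of Xaf1 and Ifit2 in 3 lineages, of Isg20 and Ddx58 in Th1 and Th9, of Usp18 in Th1 and of Ifit1 in Th17 cultures held in all 12 such fits. So did the 8 averaged calls.

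The effect of the activation differed between lineages for Isg20 and Usp18. An F test of the interaction of lineage and activation called 2 of the 9 genes, against 4.19% of all tested genes. They were Usp18 (adjusted p = 0.00453) and Isg20 (adjusted p = 0.0074). The difference between PBAB and HA was less negative in Th9 than in Th1 cultures by 3.30 ± 0.40 for Usp18 (adjusted p = 0.00351), the 1 gene called of 9. Over all tested genes, 1.37% were called in that contrast. It was less negative in Th17 than in Th1 cultures by 3.60 ± 0.48 for Isg20 (adjusted p = 0.00381) and 2.21 ± 0.40 for Usp18 (adjusted p = 0.0166), 2 of 9 against 3.53% of all tested genes. The Usp18 difference between Th17 and Th1 was not called without Th1 PBAB replicate 2 (0.0674), Th17 HA replicate 2 (0.0618) or Th17 PBAB replicate 2 (0.0692).

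With the replicate number as a block, more of these interactions were called. The share of all tested genes called with the block is not given here. Isg20 differed between Th9 and Th1 by 1.99 (adjusted p = 0.0849, or 0.00078 with the block) and between Th17 and Th9 by 1.62 (0.126, or 0.0026 with the block). Ddx58 differed between Th17 and Th9 by 1.22 (0.0813, or 0.0112 with the block). No gene of the 9 was called between Th17 and Th9 without the block, against 1.71% of all tested genes, and Isg20, Usp18 and Ddx58 had an unadjusted p under 0.05 there (0.00688, 0.0204 and 0.00269). These contrasts share arrays, and the HEL dose also differed between Th9 and the other lineages. The interaction was not called for Xaf1 (adjusted p = 0.74) or Ifit2 (adjusted p = 0.889).

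Under HA, the genes called between Th1 and another lineage were higher in Th1. Compared with Th1, Th9 HA cultures were lower in 3 of the 9 genes, against 3.43% of all tested genes: Usp18 (-3.69), Isg20 (-1.50) and Ifit1 (-1.15). Th17 HA cultures were lower than Th1 in 4, against 3.87%: Usp18 (-4.25), Isg20 (-2.92), Ifit2 (-1.32) and Ifit1 (-1.10). Compared with Th9, Th17 HA cultures were lower in 2, Isg20 (-1.42) and Ddx58 (-1.25), against 2.16%. These shares are from the fit without the block, and those with it are not given here. With the block, 7 genes were called lower in Th17 than in Th1 and 5 lower in Th17 than in Th9. Isg20 in the latter was lost in 7 of 12 fits without 1 array (adjusted p of 0.0534 to 0.27), and Ddx58 in 2 (0.0686 and 0.0833). In Th9 against Th1, Isg20 was lost in 3 (0.0839 to 0.171) and Ifit1 in 2 (0.117 in both). In Th17 against Th1, Ifit1 was lost in 3 (0.0674 to 0.124) and Ifit2 in 2 (0.0563 and 0.0878). Leaving out 1 array at a time gave 1 to 3, 2 to 7 and 0 to 2 calls in these comparisons; the calls fell to 1 without Th1 HA replicate 2, to 2 without Th1 HA replicate 2 or Th17 HA replicate 1, and to 0 without Th17 HA replicate 2.

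Under PBAB, Ifit1 was lower in Th9 than in Th1 cultures (-1.05), 1 of 9 against 0.903% of all tested genes. Its call was lost in 10 of 12 fits without 1 array and when arrays were centred on their medians. Usp18 (-2.05), Ifit1 (-1.33) and Ifit2 (-1.33) were lower in Th17 than in Th1 cultures, 3 of 9 against 3.13%. Usp18 (-1.65) and Ifit2 (-1.09) were lower in Th17 than in Th9 cultures, 2 of 9 against 3.74%. Ifit2 in the latter was lost in 8 of 12 fits without 1 array (adjusted p of 0.051 to 0.158), and Usp18 in 2 (0.0528 and 0.0619). In Th17 against Th1, Ifit2 was lost in 4 (0.0596 to 0.0964) and Ifit1 in 2 (0.0533 and 0.0589). The number called fell to 1 without Th1 PBAB replicate 1 or Th17 PBAB replicate 1 in the former, and to 0 without Th9 PBAB replicate 2 or Th17 PBAB replicate 1 in the latter.

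The order of the groups showed this for single genes. Xaf1 was highest in Th1 HA (9.47 ± 0.89, SD, n = 2), then Th9 HA (8.75 ± 0.64), which overlapped with it, then Th17 HA (7.81 ± 0.50). All APC alone and PBAB groups followed below 6. Ifit2 had the same order under HA, with Th1 and Th9 overlapping, and then Th1 PBAB, Th9 PBAB and the remaining groups. For Ddx58, Th9 HA came first (8.54 ± 0.42), followed by Th1 HA (8.10 ± 0.04). For Usp18, Th1 HA (9.69 ± 0.05) was followed at a distance of 3.35 by Th1 PBAB (6.34 ± 0.26), which overlapped with Th9 HA.

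Among themselves, the genes other than Rsad2 followed similar profiles. Over the 12 activated arrays, each gene's Pearson r with the mean of the other 8 was 0.957 for Ifit2, 0.938 for Xaf1, 0.912 for Irf7, 0.897 for Ifit3, 0.891 for Ifit1 and 0.887 for Isg20. It was 0.823 for Ddx58, 0.733 for Usp18 and 0.058 for Rsad2. These are descriptions over arrays that share 6 groups, so the HA and PBAB levels contribute to every r. Of the tested genes outside the list, those with the highest r with the mean of the 9 genes were Slfn8 (0.989), Prss30 (0.979), Trim12a (0.971), Ifi27 (0.967), Tor1aip1 (0.964), Gbp7 (0.962), Ifi209 (0.961) and Rab8a (0.960). Their averaged differences ran from -0.55 for Rab8a to -4.95 for Ifi209, whose PBAB means were below the threshold. That they were lower in PBAB follows from how they were chosen and is given as a description.

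The APC alone arrays gave a different picture of the same genes. HA cultures were higher than APC alone in 8 of the 9 genes, and Rsad2 was lower. Of all tested genes, 49.5% were called higher and 41.2% lower, so that a call here says little about these genes. In the order Th1, Th9 and Th17, the APC alone arrays were at 7.49, 6.89 and 6.16 for Ddx58 and at 6.48, 6.53 and 6.41 for Irf7. Isg20 was at 7.08, 7.12 and 6.69, and Usp18 at 5.82, 5.89 and 5.79. Except for Ddx58, these genes differed little among the 3 arrays. Xaf1 was at 5.64, 5.20 and 5.84 and Ifit3 at 5.79, 5.47 and 5.78. Ifit1 was at 5.27, 4.52 and 4.98 and Ifit2 at 5.02, 4.70 and 4.56, near or below the threshold. The median difference of the 9 genes was 1.11, against 0.36 over all tested genes. The median of all genes in this comparison was 0.802 when arrays were centred on their medians and 0.00571 after quantile normalization. Xaf1 (3.12 ± 0.32) and Ifit2 (2.86 ± 0.19) had the largest increases. Without the Th1 cultures, the increases of Isg20 (0.43, adjusted p = 0.184), Ifit3 (0.60, adjusted p = 0.0685) and Usp18 (-0.12, adjusted p = 0.655) were not called. That of Ifit3 was not called without the Th9 cultures either (adjusted p = 0.0698). Ddx58 was higher by 1.13 with the probe set used, and lower by -1.60 with another, which was at 6.63 to 6.98 in APC alone arrays.

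Rsad2 was at 8.65, 8.26 and 8.50 in the APC alone arrays of Th1, Th9 and Th17 cultures, above all 12 activated arrays, which were between 5.67 and 6.64. It was lower by -2.40 ± 0.21 in HA and -2.38 ± 0.21 in PBAB cultures (adjusted p = 7.82e-07 and 8.65e-07). Both other probe sets were lower as well, by -0.92 and -1.58 in HA cultures. PBAB cultures were higher than APC alone in Ifit2 (0.82) and lower in Isg20 (-1.04), Ifit1 (-0.40) and Rsad2, that is 1 of 9 higher against 48.7% and 3 of 9 lower against 41.1% of all tested genes. The fall of Ifit1 turned to 0.02 when arrays were centred and to 0.26 after quantile normalization. It was not called without the Th17 cultures, which leave this comparison with their APC alone array (-0.10, adjusted p = 0.635). Both comparisons use the same 3 APC alone arrays, which stand apart in marker levels and technical measures as given above. The part of these in the differences was not tested.

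The genes that make, carry and answer the interferon signal were grouped by role. Among 7 ligand genes tested, only Ifng was called in the average of PBAB minus HA (-1.06 ± 0.28, adjusted p = 0.0135). Ifng was at 13.20 and 12.44 in HA and 13.21 and 12.94 in PBAB arrays of Th1 cultures, and at 6.84 and 8.24 against 7.65 and 8.41 in Th9 cultures. These groups overlapped. In Th17 cultures it was at 7.30 and 8.02 in HA and 3.32 and 4.13 in PBAB arrays, the latter below the threshold (-3.94 ± 0.48, adjusted p = 0.000641). In Th1 cultures the Ifng difference was 0.26 and not called (adjusted p = 0.789). The part of interferon-gamma in the differences of the listed interferon-induced genes was not tested. Ifnb1 was below the threshold in the mean of each activated group and not called (0.13, adjusted p = 0.463).

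Of 10 receptor and signalling genes tested, 3 were called higher and 3 lower in PBAB, where 13.2% of all tested genes were called higher and 17.3% lower. Ifnar2, a chain of the type I receptor, was higher by 1.10 ± 0.14, at 9.53 to 10.13 in the 6 PBAB arrays and 8.19 to 9.22 in the 6 HA arrays. Ifngr2 was higher by 0.97 and Stat3 by 0.72. Ifngr1 fell by 0.99, Jak1 by 0.71 and Irf9, the DNA-binding partner of Stat2, by 0.70. These are averages, and Ifngr1 differed most in Th1 cultures (HA 11.75 and 11.93, PBAB 9.41 and 9.46). It was at 10.94 and 10.78 against 10.34 and 10.86 in Th9, and 11.15 and 10.70 against 10.55 and 10.68 in Th17 cultures. Ifnar1 (-0.19, adjusted p = 0.311), Tyk2 (0.06, adjusted p = 0.687) and Stat2 (-0.07, adjusted p = 0.747) were not called.

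Of 6 other interferon regulatory factors tested, Irf4 was called higher (1.35) and Irf1 lower (-0.61). Of 9 negative regulators, Ptpn6 was called higher (0.67) and Pias1 lower (-0.26). In Th17 cultures, the Ptpn6 arrays overlapped (HA 9.560 and 9.304, PBAB 9.559 and 9.195). Of 11 genes of nucleic acid sensing, 5 were called lower and 2 higher. In the average, Zbp1, a sensor of Z-form nucleic acid, fell by 2.10 and the adaptor Myd88 by 1.09. Dhx58, a relative of Ddx58, fell by 0.71, but its arrays overlapped in Th17 cultures (HA 7.04 and 6.72, PBAB 6.91 and 7.22). Samhd1 (0.76) and Ikbke (0.32) were higher in the average, but not in each lineage. Samhd1 was at 12.18 and 12.54 in Th1 HA and 11.95 and 12.08 in Th1 PBAB arrays. Ikbke was at 9.49 and 9.23 in Th17 HA and 9.08 and 8.92 in Th17 PBAB arrays. Of 3 genes of ISG15 conjugation, Herc6 (-0.70) and Uba7 (-0.69), its activating enzyme, were called lower.

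The other antiviral effectors were mostly lower in PBAB: of 35 tested, 24 were called lower and 1 higher, with a median of -0.98 against 0.02 over all tested genes. The largest falls were in Ifitm1, which blocks virus entry (-3.23 ± 0.33), Rtp4 (-2.93 ± 0.39) and Ifi27 (-2.69 ± 0.13). Rtp4 was below the threshold in every PBAB array, so the size of its fall is uncertain. Ifi27 was lower in Th1, Th9 and Th17 cultures by -2.70, -2.88 and -2.47. Bst2, which tethers budding virus, was the 1 gene called higher (0.39). Of 14 genes led mainly by interferon-gamma, 6 were called lower and 1 higher, with a median of -0.34. Psmb10, an immunoproteasome subunit, fell by 1.57, and the chemokines Cxcl10 and Cxcl9 fell by 0.79 and 0.76. Both chemokines were below the threshold in every PBAB array, as was Cxcl9 in Th9 HA arrays (4.06 and 4.08), so the size of these falls is uncertain. Cd274, which encodes PD-L1, was higher by 0.55 in the average, but its arrays overlapped in Th17 cultures (HA 8.01 and 8.01, PBAB 7.74 and 8.19).

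**Figure D3:**
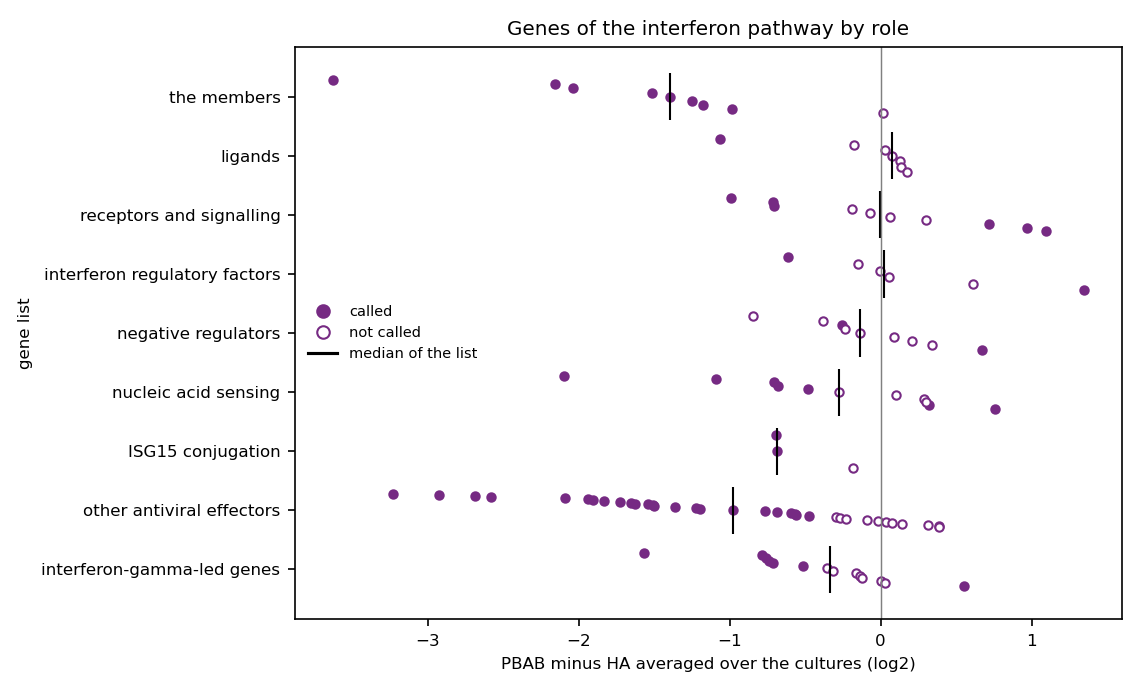
PBAB minus HA averaged over the 3 lineages, on the log2 scale, for the 9 genes (labelled the members) and 8 lists of interferon genes by role. Each point is a gene, filled if called, and the bar is the median of the list. The medians of the 9 genes (-1.40) and the other antiviral effectors (-0.98) lie farthest below 0, and the receptors and signalling genes lie on both sides of it.

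Some markers of other cells that the cultures could hold also moved with the activation. The 19 macrophage and monocyte markers had a summed level of 9.44 to 9.73 in Th1 HA and 9.75 to 10.05 in Th1 PBAB arrays. In Th9 cultures it was 10.61 to 11.21 against 9.53 to 9.98, and in Th17 cultures 12.42 to 12.80 against 9.24 to 9.48. Of the 17 tested, 1, 6 and 9 were called lower in PBAB in Th1, Th9 and Th17 cultures, and 1, 1 and 0 higher. Over all tested genes, 9.4%, 6.32% and 10.4% were called lower in these comparisons. In Th1 cultures the gene called higher was Cd68, at 7.23 and 6.09 in HA and 8.53 and 8.91 in PBAB arrays (2.06, adjusted p = 0.0058). The gene called lower there was the lysozyme gene Lyz1, at 7.22 and 6.29 against 3.62 and 3.95 (-2.97, adjusted p = 0.00307). Its close copy Lyz2 was at 6.63 and 5.70 against 4.46 and 5.43 in Th1 (-1.22, adjusted p = 0.0657). It was at 8.89 and 8.33 against 5.09 and 4.88 in Th9, and 10.34 and 10.84 against 5.04 and 5.73 in Th17 cultures, called lower in both (-3.63 and -5.21). The summed level of the 19 markers was thus lower in PBAB in Th9 and Th17 but not in Th1 cultures. That sum weights the strongest marker most, which in Th1 PBAB arrays was Cd68. The mean log2 level of the 19 was 4.945 to 5.022 in Th1 HA and 4.771 to 4.984 in Th1 PBAB arrays, which overlapped. It was 5.484 to 5.851 against 4.682 to 4.939 in Th9, and 6.209 to 6.416 against 4.655 to 4.841 in Th17 cultures. In Th1 cultures, 15 of the 17 tested markers were not called. The difference between PBAB and HA itself differed between Th17 and Th1 cultures for 7 of the 17 markers and between Th9 and Th1 cultures for 0. Over all tested genes, 3.53% and 1.37% were called in these contrasts. The part of these cells in the differences of the 9 genes was not tested. Of all 19 markers, 9 had a mean below the threshold in Th1 HA and 12 in Th1 PBAB cultures, Adgre1 and Cd14 in both.

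Of 7 plasmacytoid dendritic cell markers tested, none was called lower in PBAB in any lineage, and Siglech was between 4.49 and 5.48 in the activated arrays. Of 11 B cell markers, none was called lower in PBAB in any lineage, and 2, 0 and 1 were called higher in Th1, Th9 and Th17 cultures. The summed level of 7 NK cell markers was 10.71 and 10.43 in Th1 HA and 9.18 and 9.59 in Th1 PBAB arrays, with none of the 4 tested called there. That sum followed mainly 1 marker, Klrk1, at 10.53 and 10.21 in Th1 HA and 8.68 and 9.23 in Th1 PBAB arrays. Eomes, the next highest, was at 6.81 and 6.69 against 6.57 and 6.51. Of 10 T cell markers, 3, 1 and 3 were called lower and 1 in each lineage higher. The actin signal differed between HA and PBAB arrays as given above, and its part in the differences was not tested.

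**Figure D4:**
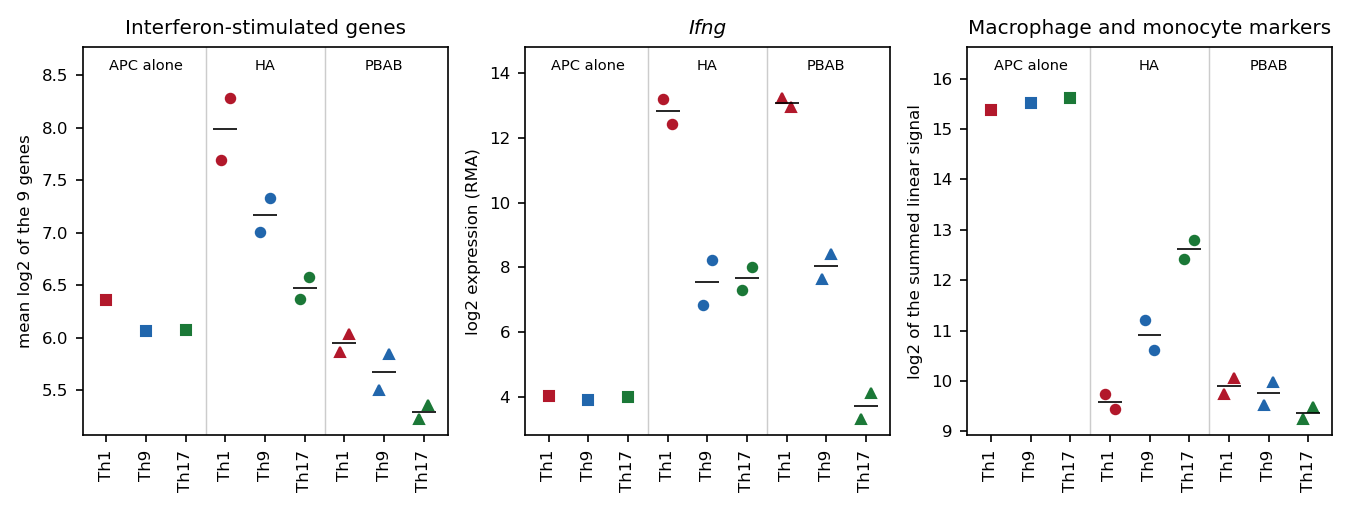
Mean log2 level of the 9 genes (left), log2 level of Ifng (middle) and log2 summed signal of 19 macrophage and monocyte markers (right) in each of the 15 arrays. Squares are APC alone, circles HA and triangles PBAB arrays, and short lines are means of 2 arrays. The 9 genes are highest in Th1 HA arrays (7.70 and 8.28). Ifng is highest in the Th1 HA and Th1 PBAB arrays, and the markers are highest in APC alone arrays (15.38 to 15.61).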

How the data were processed

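RNA amplified from 500 ng was hybridised to 15 Affymetrix mouse arrays. Values are the log2 signals of 45101 probe sets that the authors deposited, computed with RMA per the submitters' processing notes. The RMA version was not stated, and the log base follows from the range. The values of the APC alone arrays were distributed differently from those of the other arrays, which limits comparisons with them.

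The platform annotation of 2016 paired 34958 probe sets with 1 symbol. Genes were tested where the chosen probe set exceeded 5.07, the 40th percentile of all values, in 2 or more arrays, and a group mean below this threshold is not told from background. Groups came from the labels. The test was limma 3.58.1 in R 4.3.3, with a mean for each of 9 groups over all arrays, 6 residual and 4.38 prior degrees of freedom, and Benjamini-Hochberg adjustment over 15498 genes. Second probe sets were tested in a fit over all 34958. The fit was tested on simulated data in which the arrays varied independently. That test does not cover the shared deviations of arrays with the same replicate number, given below. The number of arrays limits the precision.

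Arrays that share a replicate number deviated together in each of 15 pairs of activated groups (correlations of 0.296 to 0.708). The numbers, which come from the labels, were therefore read as pairs. The main test above left this pairing out, so its standard errors and p-values take no account of it. A blocked fit, which takes it into account, is quoted only where it changed a call. Other fits varied the filter, probe set, scaling, variance trend, array weights and arrays included. The 10 genes, the pathway and marker lists and the tests were chosen with earlier results of these data known. Named genes of the pathway lists were the receptor chains and main signalling genes, and up to 3 per list and direction with the largest called averaged difference. The genes most like the 9 were those with the 8 highest r.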

Additional observations from a re-analysis of the deposited data

Results flagged for a closer look

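Usp18 and Isg20 responded to the mode of activation differently in different lineages, by the test of the difference itself. For Usp18, the difference between PBAB and HA was 3.30 higher in Th9 than in Th1 cultures (limma, adjusted p = 0.00351) and 2.21 higher in Th17 than in Th1 cultures (adjusted p = 0.0166). For Isg20, it was 3.60 higher in Th17 than in Th1 cultures (adjusted p = 0.00381). The 3 comparisons share the Th1 arrays.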

How the results depend on the processing

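In PBAB minus HA, 8 of the 9 genes were called in Th1, 7 in Th9 and 6 in Th17 cultures and 8 in the average. Without 1 array the counts were 5 to 8, 4 to 7, 3 to 6 and 8. The interaction counts were then 1 to 2 between Th9 and Th1, 1 to 3 between Th17 and Th1 and 0 between Th17 and Th9. Under HA they were 1 to 3 (Th9 and Th1), 2 to 7 (Th17 and Th1) and 0 to 2 (Th17 and Th9), and under PBAB 0 to 1, 1 to 3 and 0 to 2 in the same order. With the replicate block, 2 interactions were called between Th9 and Th1 and 2 between Th17 and Th9, and under HA 7 genes between Th17 and Th1 and 5 between Th17 and Th9. The shares of all tested genes given above are from the fit without the block. The block changed no call of the 9 genes in PBAB minus HA. Quantile normalization gave 1 interaction between Th17 and Th9 and 1 gene between them under HA, as did array weights for the latter. Centring arrays gave 0 genes between Th9 and Th1 under PBAB. The cause of these changes was not tested.

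Direction changed in 22 alternative values, of which none was called. Without 1 array, Usp18 in Th9 cultures ranged from -0.42 to 0.31, and Rsad2 from -0.47 to 0.27 in Th9 cultures, from -0.46 to 0.15 in Th17 cultures and from -0.11 to 0.14 in the average. The averaged Rsad2 value was -0.19 with the mean of all probe sets. Against APC alone, Ddx58 in HA was at -0.18 with the mean of all probe sets. Without 1 array, Usp18 ranged from -0.12 to 1.99 in HA, and from -0.72 to 0.29 in PBAB. Leaving out an APC alone array took the whole lineage out of this comparison. The value of -0.12 was thus without the Th1 cultures, and that of 0.29 without the Th17 cultures. In PBAB, Ifit1, Ifit3, Usp18 and Ddx58 were at 0.022, 0.19, 0.12 and 0.15 with centred arrays, and Ifit1, Ifit3, Usp18 and Xaf1 at 0.26, 0.27, 0.15 and 0.047 after quantile normalization.

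Each activated group had 2 arrays and each APC alone group 1, whose spread was assumed to be that of the others. Levels near or below the threshold carry uncertain differences. The HEL dose and cocktail differed between lineages.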
